A study of Homo sapiens with 2 samples.

Results

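Interferon-inducible genes and interferon regulatory factor (IRF) genes were described in A549, an established line of human lung adenocarcinoma cells, after mechanical stretch. The genes were chosen by symbol alone: names beginning with IFI, ISG, IRF, GBP, PARP, OAS, APOL, SAMD9, STAT or HLA, with MX and TAP genes and 5 single antiviral genes (RSAD2, BST2, XAF1, HERC5, CMPK2). Of 14884 genes with a name on the array, 46 met this rule, through 57 probe sets. For each gene the probe set whose mean over both arrays was highest was used, and 43 of the 46 genes had 1 probe set. The series holds 2 expression arrays, 1 of cells kept for 4 h in stretch culture and 1 of cells kept for 4 h in static culture, both of A549 cells with no other agent in the labels. The source names of both samples give A549, while the title of the stretch sample has 2 digits of that name swapped. No value below therefore has a replicate, and no test between conditions exists. The device and strength of the stretch and the number of cultures behind each RNA are not given in the sources used here.

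Interferons are secreted proteins that put cells into an antiviral state. Their receptors act through JAK kinases and STAT factors, and the STAT factors and IRF9 bind an interferon-stimulated response element (ISRE) or a gamma-activated site (GAS) in the promoters of target genes. IRF factors bind ISRE-like sequences too: IRF3 and IRF7 switch on interferon genes after foreign nucleic acid is sensed, IRF1 activates many of the same targets, and IRF2 competes with IRF1 for its sites. In lung epithelium these genes are best known as a first defence against respiratory viruses.

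Values are log2 signals after RMA (robust multi-array average), so a difference of 1 is 2-fold, and every difference is stretch minus static. Across the 53617 probe sets, which are no independent replicates, r between the arrays was 0.946. A gene was counted if at least 1 of its 2 values reached the level filter of 2.52, the median of all values. A guide to background was taken from 21 genes of unrelated tissues: 95% of their values lay at or below 4.05, and the largest of their differences was 0.72 in size. As a check of the line, the epithelial keratin KRT18 read 11.0 on the stretch and 10.29 on the static array, and 4 of 5 measured epithelial markers lay above 4.05 on both arrays. The 2 fibroblast and 3 endothelial markers measured lay below it on both. Of 3 leukocyte markers, LYZ lay below it (1.90 on the stretch and 2.40 on the static array), whereas CD68, a lysosomal protein, read 8.58 on the stretch and 7.51 on the static array, and CD14 read 5.53 on the stretch and 5.13 on the static array. The part of leukocyte markers in the results below was not tested.

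The interferon-related genes did not move as a block. Of the 46 genes, 36 passed the level filter, and of these 8 were higher on the stretch array by 1.5-fold or more, 6 lower by as much and 22 in between. Over all 10981 named genes past the filter, 27.7% were higher by 1.5-fold or more and 8.90% lower. The corresponding shares of the 36 genes were 22.2% and 16.7%. Their median difference was 0.065, against 0.20 over all named genes past the filter. IFIT1 and IFIT2 passed the filter through the static array alone and so had to be lower on the stretch array. Without these genes, 4 of 34 were at least 1.5-fold lower. At 2-fold, 2 genes (GBP3 and PARP1) were higher and 3 (IRF2, SAMD9L and IFITM3) lower, where 12.3% of all named genes were higher and 2.50% lower.

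These counts moved with the scaling of the arrays, and so did the median of all named genes past the filter. It was 0.20 as deposited, -0.01 after quantile normalization, 0.04 after a loess on mean signal and -0.185 with the arrays centred on 14 reference genes. The reference genes were themselves uneven, with differences from -0.57 (REEP5) to 1.72 (PPIA). Of the 14, 6 were at least 1.5-fold higher and 0 lower, so this centring is a rough one. The split of 8 higher against 6 lower became 6 against 7 after quantile normalization and after loess, and 2 against 12 with reference genes. The shares of all named genes past the filter moved likewise: 16.5% were higher and 14.1% lower after quantile normalization, 18.5% and 12.2% after loess, and 13.1% and 23.9% with reference genes. Each of the 14 genes past 1.5-fold kept its sign under quantile normalization, loess, reference genes and the mean of all probe sets. Fewer cells that express a gene and less RNA per cell cannot be told apart in such bulk RNA.

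**Figure D1:**
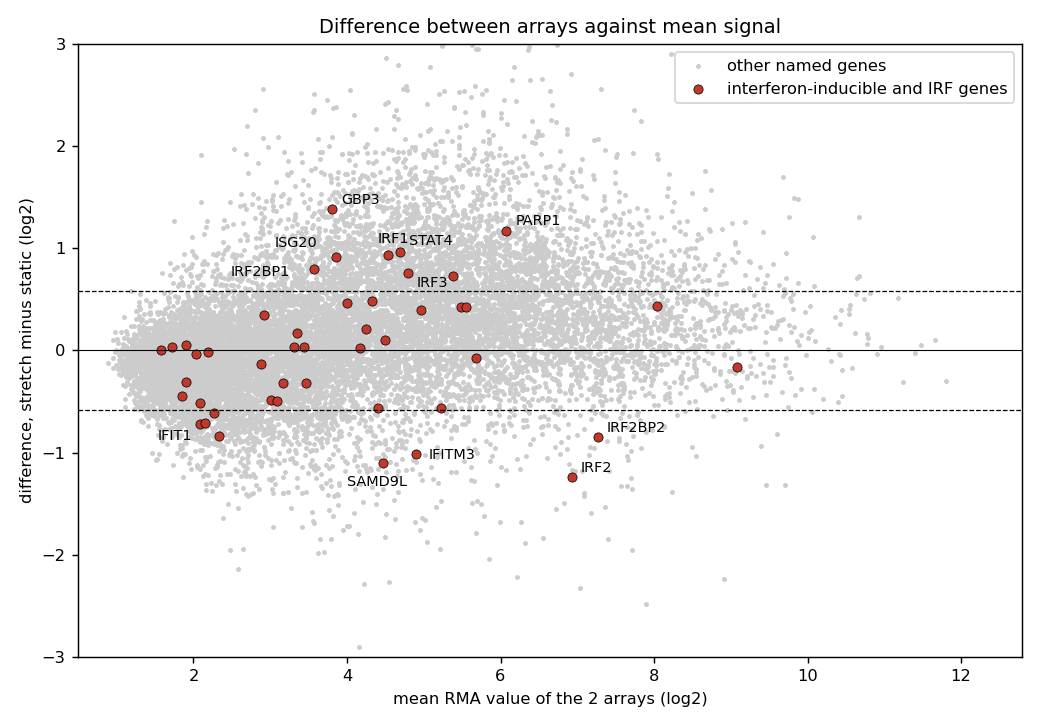
Difference between the arrays (stretch minus static, log2) against the mean signal of both arrays for each named gene, in grey, and for the 46 interferon-related genes, in red, with dashed lines at 1.5-fold. The red points lie on both sides of 0, from -1.24 (IRF2) to 1.38 (GBP3), and 14 named genes with differences beyond 3 in size lie outside the axis.

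Promoter windows were read from RefSeq (GRCh38.p14, 250 bases before to 50 after the gene start, the first window listed for each gene) to show where the letters of these elements lie. Of the 46 genes, 36 matched. The letters GAAANNGAAA, on either strand, served for the ISRE, and TTCNNNGAA, which is its own reverse complement, for the GAS. ISRE letters were in 15 of 36 windows (41.7%), against 3.65% of 27305 windows of all genes, one per gene. GAS letters were in 8 of 36 (22.2%), against 7.88%. The symbols that chose the genes reflect known interferon responses, so these shares describe the choice. In BST2 and IFITM1 an ISRE and a GAS match overlapped. The 9 genes with ISRE letters whose difference was below 0 included HERC5, IFIH1, IFIT1, IFIT3, IFITM3 and SAMD9, and the 6 above 0 included GBP3, ISG15 and ISG20. The median difference was -0.31 over the 15 genes with ISRE letters and 0.17 over the 21 without, counting genes below the level filter, and -0.13 (11 genes) against 0.35 (17 genes) past it. These medians are as deposited only, and IFIT1, among the 11, passed the filter through the static array alone. The sets also differ in role: every IRF, STAT and PARP gene with a window was in the set without ISRE letters. They differ in signal too, and the brightest genes with a window (STAT3, IRF2BP2 and PARP1) had no ISRE letters. Differences ran higher at higher signal, with a median of 0.34 over named genes above the background guide on both arrays. Whether the letters bear on the differences was not tested. A match is a run of letters and was not shown to be bound here.

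Windows are printed for 3 genes that were lower on the stretch array and 3 that were higher, chosen after their values were seen. Each printed window holds a match, so they do not stand for the lower or the higher genes as a whole. Past the filter, 2 genes with ISRE letters and 2 without (SAMD9L and IRF2BP2, not printed) were at least 1.5-fold lower. At least 1.5-fold higher were 2 genes with ISRE letters and 5 without. Capitals mark ISRE and GAS letters.
IFIT1 (chr10:89392373-89392672, plus strand): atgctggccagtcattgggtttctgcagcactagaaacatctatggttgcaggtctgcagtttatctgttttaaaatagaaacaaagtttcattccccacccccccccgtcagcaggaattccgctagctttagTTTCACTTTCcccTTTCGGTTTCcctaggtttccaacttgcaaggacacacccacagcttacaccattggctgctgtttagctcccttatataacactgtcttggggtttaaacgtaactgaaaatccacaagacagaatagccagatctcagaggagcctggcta
IFITM3 (chr11:320811-321110, minus strand): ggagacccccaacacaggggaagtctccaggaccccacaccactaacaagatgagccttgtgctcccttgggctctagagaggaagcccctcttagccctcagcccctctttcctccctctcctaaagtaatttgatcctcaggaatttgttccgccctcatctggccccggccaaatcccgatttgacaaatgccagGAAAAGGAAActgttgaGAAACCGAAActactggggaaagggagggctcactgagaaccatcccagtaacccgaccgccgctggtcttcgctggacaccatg
SAMD9 (chr7:93117930-93118229, minus strand): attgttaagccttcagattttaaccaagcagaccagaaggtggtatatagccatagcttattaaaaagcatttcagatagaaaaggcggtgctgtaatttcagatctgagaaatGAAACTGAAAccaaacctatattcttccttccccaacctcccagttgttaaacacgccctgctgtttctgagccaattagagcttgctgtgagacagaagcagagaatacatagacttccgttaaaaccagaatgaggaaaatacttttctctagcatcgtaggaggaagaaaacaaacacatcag
IRF1 (chr5:132490724-132491023, minus strand): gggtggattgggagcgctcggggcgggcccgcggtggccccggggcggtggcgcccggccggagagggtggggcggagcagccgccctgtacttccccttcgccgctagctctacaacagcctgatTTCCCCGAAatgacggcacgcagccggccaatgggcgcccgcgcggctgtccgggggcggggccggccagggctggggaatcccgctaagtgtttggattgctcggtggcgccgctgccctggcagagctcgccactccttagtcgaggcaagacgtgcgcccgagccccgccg
GBP3 (chr1:89022817-89023116, minus strand): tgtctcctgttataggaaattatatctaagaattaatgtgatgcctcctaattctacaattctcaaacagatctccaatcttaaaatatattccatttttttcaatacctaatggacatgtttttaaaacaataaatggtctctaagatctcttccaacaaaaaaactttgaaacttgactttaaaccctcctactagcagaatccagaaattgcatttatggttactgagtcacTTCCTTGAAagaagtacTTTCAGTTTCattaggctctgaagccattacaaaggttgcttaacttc
ISG20 (chr15:88638766-88639065, plus strand): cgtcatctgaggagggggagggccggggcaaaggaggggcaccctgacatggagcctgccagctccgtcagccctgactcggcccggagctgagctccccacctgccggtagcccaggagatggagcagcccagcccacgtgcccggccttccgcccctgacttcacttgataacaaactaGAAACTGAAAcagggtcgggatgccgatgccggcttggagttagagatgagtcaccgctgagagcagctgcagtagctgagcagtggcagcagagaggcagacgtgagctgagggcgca
IFIT1 and IFITM3 each held 2 ISRE matches, while SAMD9 and ISG20 held 1. The 1 match of IRF1 was a GAS, TTCCCCGAA, and GBP3 held 1 of each.

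Among the transcription factors, IRF1 and IRF2 lay on opposite sides. IRF2 read 6.31 on the stretch and 7.55 on the static array, a difference of -1.24 (2.36-fold lower), and both values were well above the background guide. This was rank 128 from the lowest of 10981 genes, and of the 500 named genes nearest in mean signal, 1.0% had a difference as low. IRF1, the activator that binds the same sites, read 5.00 on the stretch and 4.07 on the static array, a difference of 0.93 (1.91-fold higher). The IRF1 difference was 0.67 after loess, 0.595 after quantile normalization and 0.545 with reference genes, the last under 1.5-fold. Its share of nearest genes with a difference as high was 17.4%. IRF2BP2, a corepressor that binds IRF2, was also lower: it read 6.84 on the stretch and 7.69 on the static array (-0.85), with 3.0% of its nearest genes as low. A dimmer probe set of IRF2BP2 had a difference of -0.18, and the mean of both was -0.515. The related corepressor IRF2BP1 had the opposite sign, with 3.97 on the stretch and 3.17 on the static array (0.80). Both values were within the background range, and the difference was 0.415 with reference genes, under 1.5-fold. IRF2BPL, of the same family, read 4.35 on the stretch and 4.14 on the static array.

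The other IRF genes divided as well. IRF3, which is activated after viral RNA or DNA is sensed, read 5.17 on the stretch and 4.41 on the static array (0.76). That difference was 0.46 after loess and 0.38 after quantile normalization, below 1.5-fold in both. IRF9, which binds DNA in a complex with STAT factors, read 4.13 on the stretch and 4.69 on the static array. Its difference of -0.56 was just short of 1.5-fold as deposited and was -0.80 after loess, -0.88 after quantile normalization and -0.945 with reference genes. IRF7, the inducible relative of IRF3, read 3.0 on the stretch and 3.32 on the static array. IRF8, a factor of myeloid and B cells, read 2.84 on the stretch and 3.34 on the static array. IRF5 read 3.10 on the stretch and 2.75 on the static array. On both arrays these 3 genes lay within the background range, and IRF4, a lymphocyte factor, was below the level filter (1.93 on the stretch and 1.88 on the static array). Of the 10 IRF and IRF2-binding genes past the filter, 3 were at least 1.5-fold higher (30.0%) and 2 lower (20.0%), beside 27.7% and 8.90% of all named genes.

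The 4 measured STAT genes had no negative difference as deposited. STAT4, which carries interleukin 12 signals in lymphocytes, read 5.17 on the stretch and 4.21 on the static array (0.96), and 21.0% of its nearest genes were as high. With reference genes its difference was 0.575, just under 1.5-fold. STAT3, which responds to cytokines of the interleukin 6 family, read 8.25 on the stretch and 7.82 on the static array (0.43). STAT5B read 4.55 on the stretch and 4.45 on the static array, and STAT5A 3.32 on the stretch and 3.29 on the static array. Differences of this size do not keep their sign: STAT5B was -0.16 after loess, -0.24 after quantile normalization and -0.285 with reference genes, and STAT5A was -0.025 after quantile normalization and -0.355 with reference genes.

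**Figure D2:**
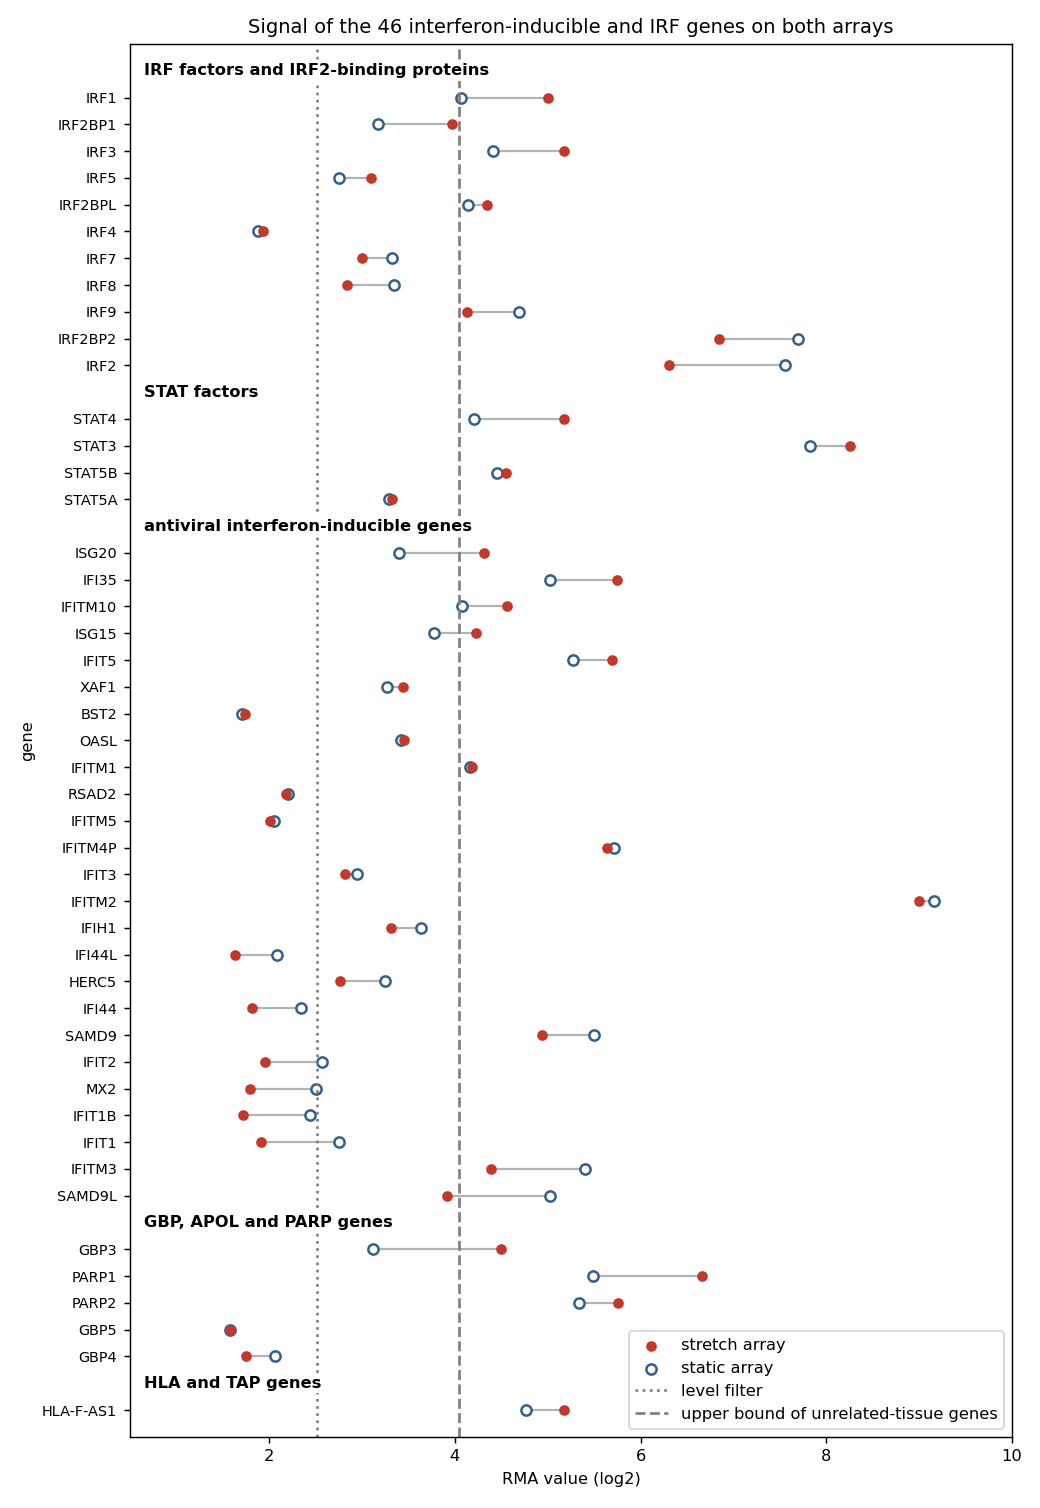
Signal of each interferon-related gene (RMA value, log2) on the stretch array (filled red) and on the static array (open blue), grouped by role and ordered by difference, with 1 array per condition. IRF2, IRF2BP2, SAMD9L and IFITM3 have the red point clearly to the left, GBP3, PARP1, STAT4 and IRF1 to the right, and 10 genes lie wholly to the left of the level filter at 2.52.

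Of the 18 antiviral genes past the filter, 10 had a difference below 0 and 8 above 0, with 4 lower by 1.5-fold or more, 2 higher and a median of -0.10. These are 22.2% lower and 11.1% higher, against 8.90% and 27.7% of all named genes past the filter, of which 3883 of 10981 had a difference below 0. The 4 were SAMD9L, IFITM3, IFIT1 and IFIT2. The last 2 passed through the static array alone and so had to be lower. The 22.2%, the 10 genes below 0 and the median of -0.10 all include them. SAMD9L, an antiviral protein that also restrains growth, read 3.92 on the stretch and 5.02 on the static array, a difference of -1.10 (2.14-fold lower), with the stretch value inside the background range. Of its nearest genes 1.6% were as low. Its neighbour and relative SAMD9 read 4.94 on the stretch and 5.50 on the static array (-0.56), with 3.6% of nearest genes as low, and stood at -0.90 after loess. Both genes of the pair were therefore lower on the stretch array in each of the scalings tried.

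IFITM proteins sit in membranes and block the fusion of viruses with the cell. IFITM3, which acts in endosomes, read 4.39 on the stretch and 5.40 on the static array, a difference of -1.01 (2.01-fold lower), and 2.0% of its nearest genes were as low. The gap was larger after loess (-1.32) and after quantile normalization (-1.38). Its close relative IFITM2 read 9.0 on the stretch and 9.16 on the static array. IFITM1, at the cell surface, read 4.18 on the stretch and 4.16 on the static array. The lower signal of IFITM3 thus had no counterpart of its size at IFITM1 or IFITM2, whose probes could share RNA with it because the genes are similar. IFITM10 read 4.56 on the stretch and 4.08 on the static array (0.48). The pseudogene IFITM4P, whose signal is uncertain for its likeness to the parent genes, had 6 probe sets with differences from -0.07 to 0.02. IFITM5, a gene of bone-forming cells, lay below the filter (2.01 on the stretch and 2.05 on the static array).

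IFIT proteins bind viral RNA. IFIT1 read 1.91 on the stretch and 2.75 on the static array (-0.84), and IFIT2 read 1.96 on the stretch and 2.57 on the static array (-0.61). Both were inside the background range on either array, where 11.2% of the genes nearest to IFIT1 and 30.0% of those nearest to IFIT2 were as low. Those nearest genes had passed the level filter too, and a gene with a mean below the filter passes only if its 2 values differ. The median difference of the nearest genes was -0.36 for IFIT1 and -0.385 for IFIT2. The filter thus shapes both shares, which do not show how common such a difference is at that signal. IFIT1B, with 1.72 on the stretch and 2.44 on the static array, was below the filter. IFIT3, which stabilises IFIT1, read 2.82 on the stretch and 2.95 on the static array. IFIT5 was the one IFIT gene above the background guide, with 5.69 on the stretch and 5.27 on the static array (0.42), a difference that was 0.07 after loess and -0.02 after quantile normalization.

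Genes of the ISG15 pathway and of RNA decay and sensing were not lower together. ISG15, a ubiquitin-like protein that is joined to other proteins, read 4.23 on the stretch and 3.77 on the static array (0.46). HERC5, the ligase that attaches it, read 2.76 on the stretch and 3.25 on the static array (-0.49), within the background range. ISG20, an exonuclease that degrades RNA, read 4.31 on the stretch and 3.40 on the static array (0.91), with the static value inside the background range. With reference genes its difference was 0.525, under 1.5-fold. IFI35, a partner of the interferon-inducible protein NMI, read 5.75 on the stretch and 5.02 on the static array (0.73), and stood at 0.38 after loess. IFIH1, the MDA5 sensor of double-stranded RNA, read 3.31 on the stretch and 3.63 on the static array (-0.32). OASL (3.45 on the stretch and 3.42 on the static array) and XAF1 (3.44 on the stretch and 3.27 on the static array) were close to equal. Hence 2 antiviral genes, ISG20 and IFI35, were at least 1.5-fold higher as deposited.

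Several of the best-known interferon-induced genes were too dim to follow. Among the 10 genes below the level filter were RSAD2 (viperin), with 2.18 on the stretch and 2.20 on the static array, and BST2 (tetherin), with 1.74 on the stretch and 1.71 on the static array. MX2, a GTPase that limits retroviruses, lay just below the filter, with 1.79 on the stretch and 2.50 on the static array, while IFIT2 lay just above it. IFI44 read 1.82 on the stretch and 2.34 on the static array, and IFI44L 1.63 on the stretch and 2.08 on the static array. Such values are at or near background, and compression at low signal limits what their differences show. Of 23 genes to be named whatever their values, 16 (among them MX1, OAS1, IFI6, IFI27, TAP1 and TAP2) have no named probe set and were not analysed here.

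The highest differences belonged to GBP3 and PARP1. GBP3, a guanylate-binding GTPase of the family that attacks intracellular pathogens, read 4.50 on the stretch and 3.12 on the static array, a difference of 1.38 (2.60-fold higher), with the static value inside the background range. Of its nearest genes 4.0% were as high. GBP4 (1.75 on the stretch and 2.06 on the static array) and GBP5 (1.58 on both) were below the filter. PARP1, a sensor of DNA strand breaks that is taken in by its name and is no typical interferon target, read 6.66 on the stretch and 5.49 on the static array, a difference of 1.17 (2.25-fold higher). Among genes of its signal 13.0% were as high. PARP2, its partner in DNA repair, read 5.76 on the stretch and 5.34 on the static array (0.42), and stood at 0.07 after loess. No APOL or TAP gene was measured by name. The HLA entry was HLA-F-AS1, a long noncoding RNA antisense to HLA-F, with 5.17 on the stretch and 4.77 on the static array. Its 6 probe sets had differences from -0.31 to 0.40, and whether they separate it from HLA-F is not stated in the sources used here.

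**Figure D3:**
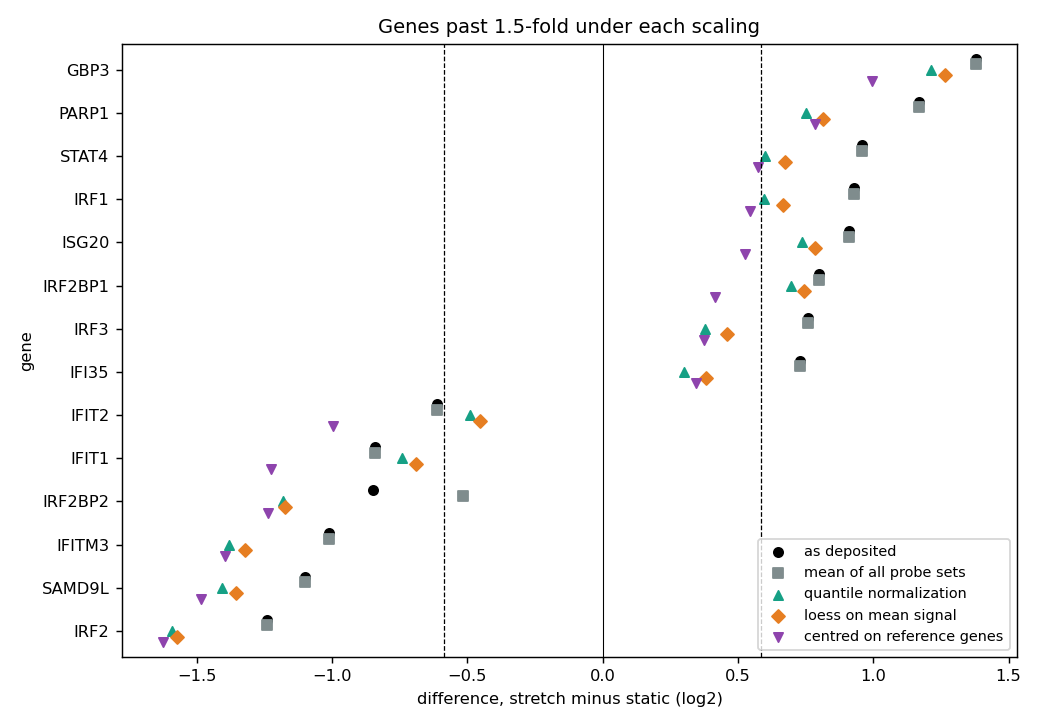
Difference (stretch minus static, log2) of the 14 interferon-related genes past 1.5-fold, as deposited and under 4 alternatives, with dashed lines at 1.5-fold. IRF2, SAMD9L, IFITM3, GBP3 and PARP1 stay outside the lines under every alternative shown, as does IFIT1, which lies inside the background range. In contrast, IRF3 and IFI35 move inside after loess, quantile normalization and centring on reference genes.

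Genes of the interferon pathway outside the symbol rule were set beside these. Of 109 such genes listed, 56 were measured and 51 passed the filter, with 12 higher by 1.5-fold or more, 2 lower and a median difference of 0.25. These are 23.5% and 3.92% of the 51, against 27.7% and 8.90% of all named genes past the filter, so the share higher was no larger than over the whole array. The split was 6 against 3 after quantile normalization, 9 against 3 after loess and 7 against 6 with reference genes, beside the shares of all named genes given above for these scalings. None of the 22 interferon genes listed was measured by name. Of the 5 receptor and kinase genes, IFNGR1, a chain of the interferon gamma receptor, read 5.87 on the stretch and 4.77 on the static array (1.10). The kinases JAK1 (9.08 on the stretch and 8.53 on the static array), JAK2 (4.70 on the stretch and 4.45 on the static array) and TYK2 (4.82 on the stretch and 5.01 on the static array) stayed inside 1.5-fold.

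Genes that sense nucleic acid included the highest difference of these lists. TRIM25, a ubiquitin ligase that helps activate the sensor RIG-I, read 7.75 on the stretch and 5.80 on the static array (1.95), rank 128 from the highest of all named genes past the filter, with 1.6% of its nearest genes as high. MAVS, the mitochondrial adaptor of RNA sensing, read 7.0 on the stretch and 5.98 on the static array (1.02). CGAS, the DNA sensor, read 4.35 on the stretch and 3.60 on the static array (0.75), and the kinase TBK1 read 6.39 on the stretch and 5.78 on the static array (0.61). The static value of CGAS was inside the background range, and its difference was 0.365 with reference genes. TBK1 stood at 0.26 after loess and 0.225 with reference genes, under 1.5-fold in both. As deposited, these 4 of 12 measured sensing genes were at least 1.5-fold higher and 0 were lower. The share higher of 33.3% is near the 27.7% of all named genes.

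Of 5 measured feedback inhibitors, SOCS3 read 5.52 on the stretch and 4.41 on the static array (1.11), but 0.465 with its 2 probe sets averaged. TRIM21, an intracellular antibody receptor that targets IRF factors, read 4.40 on the stretch and 3.35 on the static array (1.05), with the static value inside the background range. USP18, which removes ISG15, read 5.00 on the stretch and 4.51 on the static array, and SOCS2 3.44 on the stretch and 3.07 on the static array. SOCS1, the 1 inhibitor with a difference below 0, was named after its value was seen. It read 2.85 on the stretch and 3.07 on the static array (-0.22), both within the background range. In the loading of MHC class I molecules, 3 of 7 measured genes were at least 1.5-fold higher, where 27.7% of all named genes were: the peptide trimmer ERAP1 (6.56 on the stretch and 5.58 on the static array), the chaperone tapasin, TAPBP (7.56 on the stretch and 6.69 on the static array), and its relative TAPBPL (4.06 on the stretch and 3.38 on the static array). TAPBP stood at 0.54 after loess and 0.485 with reference genes, under 1.5-fold in both, and the static value of TAPBPL was inside the background range. ERAP2 read 4.22 on the stretch and 3.69 on the static array. The 1 gene of the list with a difference below 0, named after its value was seen, was B2M, the light chain of class I molecules, with 7.66 on the stretch and 7.88 on the static array (-0.22, and -0.52 after loess).

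Of 27 other interferon-inducible genes measured, 22 passed the filter, with 2 at least 1.5-fold higher, 2 lower and a median difference of 0.14. Each count is 9.09% of the 22, against 27.7% higher and 8.90% lower over all named genes past the filter. DDX60L, a helicase-like antiviral protein, read 6.16 on the stretch and 4.95 on the static array (1.21), and WARS1, a tryptophan tRNA synthetase, read 4.98 on the stretch and 4.30 on the static array (0.68), or 0.25 with both of its probe sets averaged. TRIM22, an antiviral ubiquitin ligase, read 2.54 on the stretch and 3.61 on the static array (-1.07), and LAMP3 read 2.28 on the stretch and 2.99 on the static array (-0.71), both within the background range. LAMP3 passed the filter through the static array alone and so had to be lower. Chosen after their values were seen, the interferon gamma chemokines CXCL9, CXCL10 and CXCL11 all lay below the level filter, the brightest value being 2.48 for CXCL11 on the static array.

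**Figure D4:**
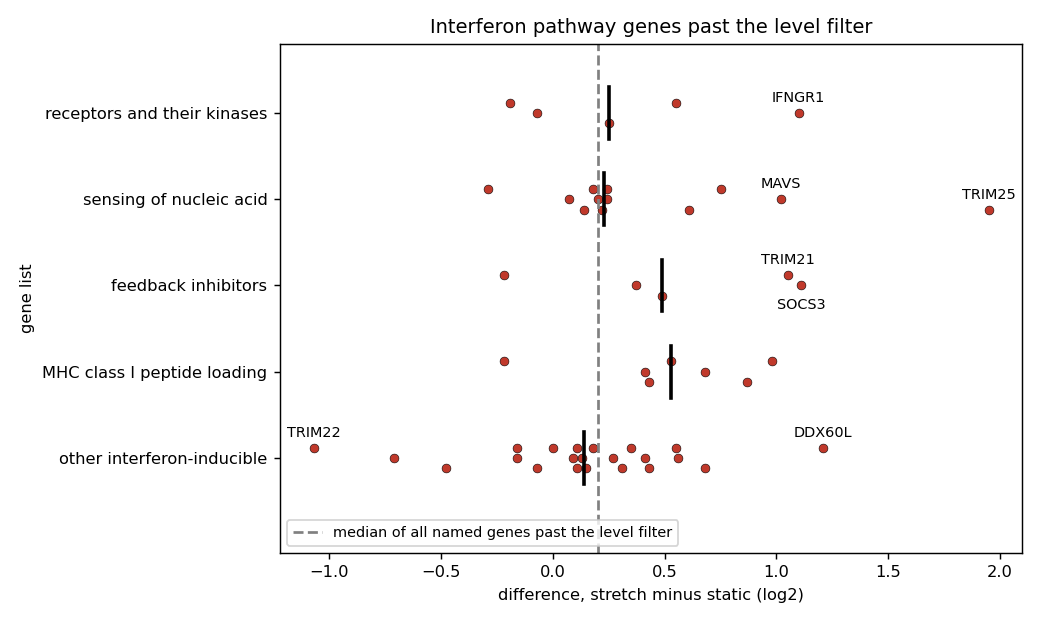
Difference (stretch minus static, log2) of each interferon pathway gene past the level filter and outside the symbol rule, by list, with a black bar at the list's median. The dashed line marks 0.20, the median of all named genes past the filter, and the list medians run from 0.14 (other interferon-inducible genes) to 0.53 (MHC class I peptide loading).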

How the data were processed

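A549 RNA was hybridised as biotin-labelled cRNA to 2 arrays, 1 per condition, and each array was assigned to its group by its source name. The deposited values are log2 signals made by the authors with RMA, per the submitters' processing notes. The software, its version and the normalization between arrays are not given in the sources used here. Names came from the platform's annotation, with symbols updated by gene identifier against RefSeq (GRCh38.p14). Of 53617 probe sets, 16098 had 1 symbol, 0 several and 37519 none.

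The log2 difference was computed per gene and counted at 0.585 (1.5-fold) or 1 (2-fold). With 1 array per group there is no p-value. The number of arrays limits the precision. The 500 named genes nearest in mean signal were drawn from those past the level filter, and their share is a description of these arrays. The background guide (48 genes listed, 21 measured) and the reference genes (28 listed, 14 measured) were lists written after the table was opened. As alternatives, the level filter was varied, all probe sets of a gene were averaged, and 4 scalings (loess span 0.3), a 2-fold threshold, the mean over genes and the omission of HLA genes were tried. Named were every IRF and STAT gene, genes past 1.5-fold and 23 fixed names. Of each pathway list, up to 4 genes with the largest differences were named. The other interferon-related genes are given so that each of the 46 is accounted for. The genes, lists and rules were chosen with earlier results of these data known. The calculations were tested on simulated data and used Python 3.11.15, numpy 2.4.6, pandas 2.3.3 and statsmodels 0.14.6.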

Additional observations from a re-analysis of the deposited data

How the results depend on the processing

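The median difference of the interferon-related genes, 0.065 as deposited, was 0.01 without a level filter, 0.41 at an upper-quartile filter (22 genes) and 0.41 at the background bound (24 genes), where all named genes stood at 0.41 and 0.39. It was 0.03 with all probe sets averaged, 0.165 after centring on array medians, -0.0675 after quantile normalization, 0.0022 after loess, -0.32 with reference genes, 0.0667 as a mean and 0.03 without HLA genes. Without IFIT1 and IFIT2, an alternative chosen after seeing the data, it was 0.135. The 8 genes higher and 6 lower became 2 and 12 with reference genes, and 2 and 3 at 2-fold. Their counts stayed within 1.5 times under the other settings. For pathway genes outside the rule, the 12 higher became 6 after quantile normalization, 7 with reference genes and 6 at 2-fold. Centring on array medians raised the 12 to 17, where 32.9% of all named genes past the filter were higher. The 2 lower became 4 without a filter, 0 at the upper-quartile and background-bound filters, 6 with reference genes and 1 at 2-fold. The filters change which genes are counted, and reference genes lower each difference by 0.385. Beyond that, the cause was not tested. Of the 14 genes past 1.5-fold, 11 stayed past it after loess and after quantile normalization, 8 with reference genes and 13 with probe sets averaged. No paired analysis was possible because each condition has 1 array. Signals near background are compressed, so 22 of the 46 genes, below the background guide on both arrays, carry little information on change.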

Other observations

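The interferon-related genes that lie next to each other among protein-coding genes were compared for the sign of their differences. The 46 genes hold 6 such runs with 18 genes in all, of which 12 had a difference below 0 and 5 above 0 as deposited. Only 12 of the 18 passed the level filter, and over all named genes past it 3883 of 10981 had a difference below 0. The sign count of the runs includes genes below the filter, so it is not on like terms with that share. On chromosome 10, 4 of the 5 IFIT genes had a difference below 0, all but IFIT5, and on each array all 4 read inside the background range. IFIT1B was below the level filter, and IFIT1 and IFIT2 passed it through the static array alone, which fixes their sign. On chromosome 7, SAMD9 and SAMD9L were both lower on the stretch array. On chromosome 17, STAT5B, STAT5A and STAT3 were all above 0, though the signs of STAT5B and STAT5A turned after quantile normalization and with reference genes, and that of STAT5B after loess too. Neighbours can share sequence, and the runs differ in signal, so the signs are not independent observations.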
